A study of Homo sapiens with 6 samples.

Results

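The genes of cholesterol and fatty acid synthesis were read in 3 human colorectal cancer cell lines carrying a short hairpin RNA (shRNA) against BZW2. The set held 35 named genes in 4 groups. These were 5 regulators, 18 enzymes of the sterol branch, the sterol carrier STARD4, and 11 genes of the fatty acid branch. Of the 35, 34 were found by Ensembl identifier on exactly 1 row, among 13021 identifiers with 1 row in all. ACACA, which encodes an acetyl-CoA carboxylase, was not analysed here. Values in all 3 lines were listed for 32 of the 34, because ELOVL5 and FADS2 had none in HT29, against 10875 genes in all.

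HCT116 (titled HCT116WT), HT29 and SW480 are established lines grown from human colorectal tumours. Each line was infected with a lentivirus expressing BZW2 shRNA or a nontargeting shRNA, and stable cells of both kinds were kept by selection in 1 µg/ml puromycin. Lentiviral infection and drug selection were therefore shared by all groups. Total RNA was sequenced from 6 cultures, giving 3 BZW2 shRNA libraries and 3 non-targeting libraries, with 1 library per line and treatment. The study was designed to find genes and pathways altered when BZW2, a protein with a basic leucine zipper and W2 domains that takes part in start codon selection, is depleted. No uninfected cells were among the samples, and the labels do not say whether a line came from 1 clone. A ratio within a line has no replicate check. The test across lines takes the 3 lines as the replicates. Its p-values set each change against the spread between these lines only, moderated toward the spread of all genes tested.

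Cells make cholesterol from acetyl-CoA through mevalonate, farnesyl diphosphate, squalene and lanosterol, and make fatty acids from the same acetyl-CoA through malonyl-CoA. Many enzymes of both branches are transcribed under the sterol regulatory element binding proteins, which are encoded by SREBF1 and SREBF2. These precursors are held in the endoplasmic reticulum by SCAP and the INSIG proteins when sterols are plentiful, and they are released for cleavage when sterols fall. SREBP2 acts mainly on sterol genes and SREBP1 mainly on fatty acid genes. Tumour cells of the intestine, like most dividing cells, use both products for membranes.

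The libraries held 2187373 and 5640626 reads over the listed genes in HCT116 (BZW2 shRNA and non-targeting), 8968603 and 9317444 in HT29, and 6105605 and 5078001 in SW480. Levels below are CPM, reads relative to the library total, after scaling by the trimmed mean of M values (TMM) within each line. Levels of different lines were not scaled to each other by TMM. BZW2 itself stood at 17.6%, 8.69% and 13.5% of its non-targeting level in HCT116, HT29 and SW480. Of 7 epithelial and colorectal markers 6 were listed in all lines, and their summed level was 14587 against 3783 CPM in HCT116, 9030 against 10414 CPM in HT29, and 6557 against 6725 CPM in SW480 (BZW2 shRNA against non-targeting). By gene, 4 of the 6 were higher and 2 lower in HCT116, 1 and 5 in HT29, and 3 and 3 in SW480. Of 8 immune, endothelial and fibroblast markers only COL1A1 was listed, in HCT116 and SW480. In bulk RNA, fewer cells of a kind and less RNA per cell cannot be told apart. The HCT116 pair stood apart. The standard deviation (SD) of its log2 ratios over all genes was 1.58, against 0.67 in HT29 and 0.70 in SW480, and the ratios moved with the GC content of the transcript (Spearman 0.66 across genes in HCT116, 0.31 in HT29 and −0.06 in SW480). Among the members listed, the same correlation was 0.64, 0.60 and −0.05. Each result below that rests on HCT116 is therefore given beside the other lines. Ratios with the GC trend removed are named as such.

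**Figure D1:**
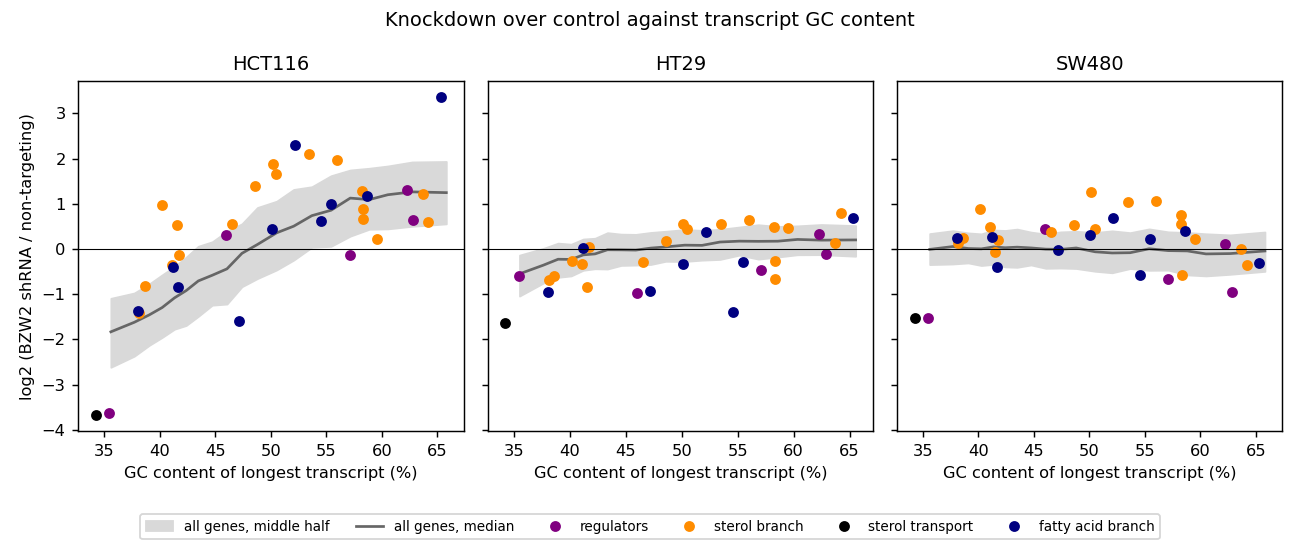
Log2 ratio of BZW2 shRNA over non-targeting (y axis) against the GC content of the longest transcript in percent (x axis), 1 panel per line; points are members coloured by group, the line is the median of all genes in 20 bins of GC content and the band runs from their lower to their upper quartile. In HCT116 the members climb with GC content along with all genes (Spearman 0.66 over all genes), and in SW480 they do not; STARD4 and INSIG2, at the lowest GC content of all members, lie below the band in HCT116 and SW480.

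No member passed the threshold across lines. With limma on log2(value + 1), blocked by line, 0 of 32 members had a Benjamini-Hochberg adjusted p under 0.05, and the background was 0% of 10875 genes. The lowest adjusted p of a member was 0.25, for STARD4. Unadjusted p was under 0.05 for 4 members that were higher (ACAT2, FDPS, EBP and ACLY), or 12.5% against 6.59% of all genes. It was under 0.05 for 2 members that were lower (STARD4 and INSIG2), or 6.25% against 7.04% of all genes. The quasi-likelihood test of edgeR on the recovered reads also called 0 members. DESeq2 called 1 member, STARD4, against 2.24% of all genes.

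By direction, 10 of 32 members were higher in all 3 lines, or 31.2% against 22.3% of all genes. They were SCAP, ACAT2, MVK, PMVK, MVD, FDPS, FDFT1, NSDHL, EBP and ACLY. The 4 that were lower in all 3 lines, SREBF2, INSIG2, STARD4 and SCD, made 12.5% against 21.1% of all genes. Of these 14, 2 depended on the choice of size factor. SCD in SW480 turned positive under the authors' size factors and under library size alone, and PMVK in HCT116 turned negative under library size alone, a scaling that set the median of all genes at −0.39 there against −0.08 with TMM. With the GC trend removed, 8 of the 10 and all 4 kept their direction in all 3 lines (PMVK and MVD did not). With the length trend removed, 8 of the 10 and 2 of the 4 did (PMVK, MVD, SREBF2 and SCD did not). Counted afresh with the GC trend removed, 10 members were higher and 7 lower in all 3 lines. HSD17B7 and ELOVL6 joined the higher ones, and SREBF1, DHCR7 and ACSS2 the lower ones. Counted afresh with the length trend removed, 9 were higher and 2 lower. All-gene shares were not counted with either trend removed. By line, the ratio was above 0 for 23 of 34 members in HCT116 (67.6% against 48.2% of all genes), 14 of 32 in HT29 (43.8% against 50.4%) and 23 of 34 in SW480 (67.6% against 49.3%). By size, 12 of 34 members were at least 2-fold higher in HCT116, or 35.3% against 26.8% of all genes with 5 CPM or more, and 5 were at least 2-fold lower, or 14.7% against 28.8%. In HT29, 0 of 32 members were at least 2-fold higher against 3.74% of all genes, and 2 (STARD4 and ACSS2) were at least 2-fold lower, or 6.25% against 6.17%. In SW480, 3 of 34 (ACAT2, FDPS and EBP) were at least 2-fold higher, or 8.82% against 4.98%, and 2 (STARD4 and INSIG2) were at least 2-fold lower, or 5.88% against 7.36%.

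**Figure D2:**
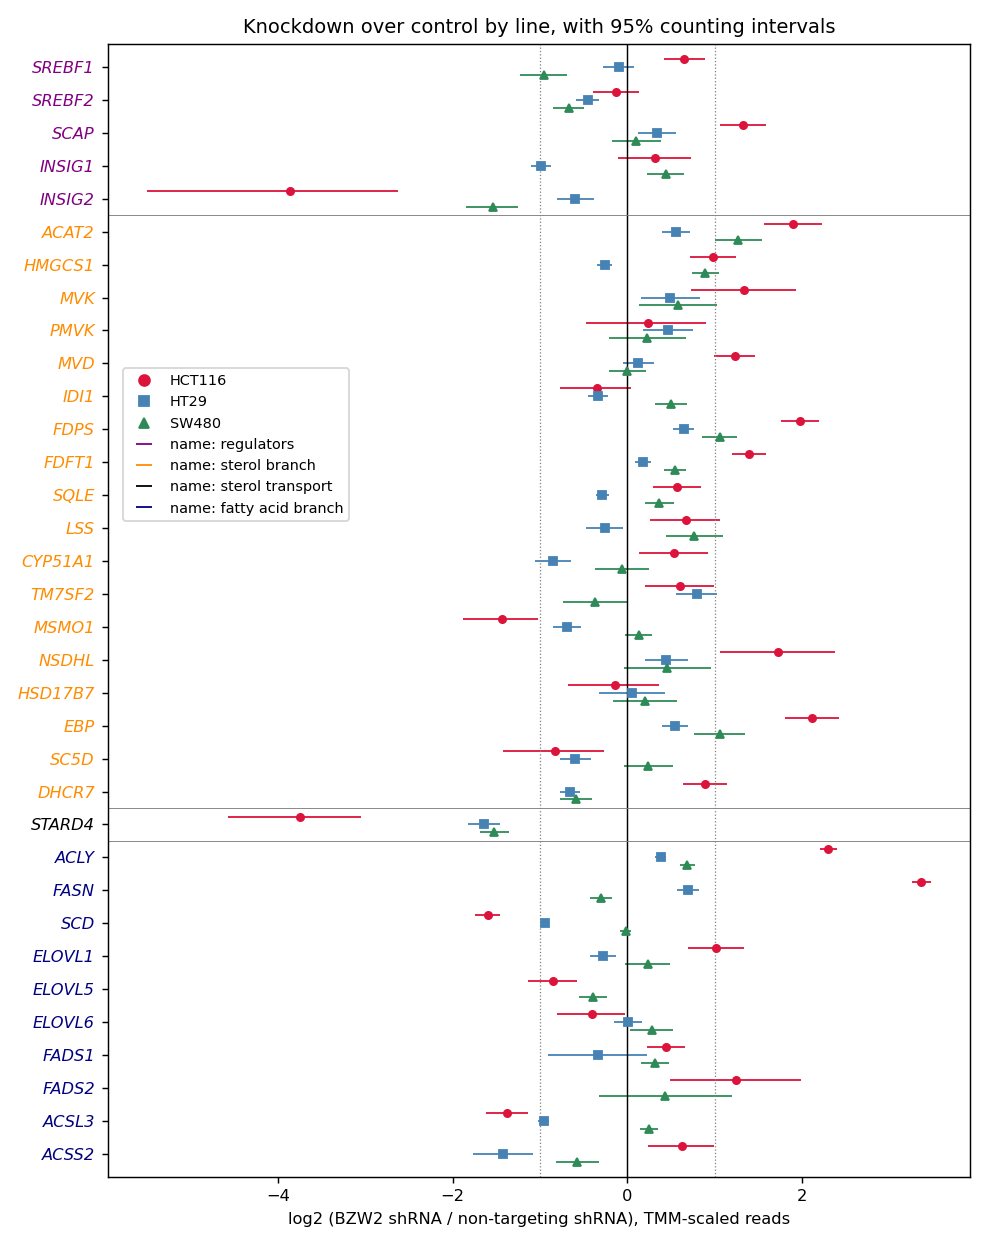
Log2 ratio of BZW2 shRNA over non-targeting from TMM-scaled reads, without the added count of 2 used elsewhere (x axis), for the 34 members (rows, coloured by group) in HCT116, HT29 and SW480; bars are exact 95% counting intervals and the dotted lines mark 2-fold. STARD4 lies left of the lower 2-fold line in all 3 lines, while ACAT2, FDPS and EBP lie right of 0 in all 3.

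STARD4 and INSIG2 were the members with the lowest ratios across lines. STARD4 (ENSG00000164211, chromosome 5, 111496033 to 111512590, minus strand, GRCh38) encodes a soluble protein that carries cholesterol between membranes. It had 8.17, 35.8 and 67.7 CPM in BZW2 shRNA cells of HCT116, HT29 and SW480, against 110.2, 111 and 194 CPM in non-targeting cells. All 3 BZW2 shRNA libraries lay below all 3 non-targeting libraries. The share of all genes whose groups did not overlap was not counted, for STARD4 or for the members below. Such a reading also compares levels between lines, which were not scaled to each other. The level was 7.41% of control in HCT116 (95% counting interval 4.21 to 12.1, from 16 and 695 reads), 32.1% in HT29 cells (28.2 to 36.4) and 34.8% in SW480 (31.0 to 39.1). Across lines the log2 fold change came to −2.25 ± 0.49 (moderated standard error, SE, n = 3 lines, limma adjusted p 0.25). Here and below the SE is the one limma moderates toward the trend over all genes. It is not the plain SE of the 3 ratios. STARD4 passed the threshold in the same fit without HCT116 (−1.55, limma adjusted p 0.00929), without SW480 (−2.63, limma adjusted p 0.0194) and in DESeq2 (−2.23, adjusted p 0.00327), but not without HT29 (limma adjusted p 0.11) or in edgeR (adjusted p 0.28). In the fit of HT29 and SW480 alone, STARD4 was the 1 member that passed among genes that were lower, a call made for 1.39% of all genes, and 0 members passed among genes that were higher, against 1.72%. Its exons overlap an antisense gene, STARD4-AS1, and whether reads were counted by strand is not given in the sources used here.

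INSIG2 (ENSG00000125629, chromosome 2, 118088452 to 118110997, plus strand) encodes a membrane anchor that retains the SCAP complex in the endoplasmic reticulum. It had 2.55, 34.0 and 21.9 CPM in BZW2 shRNA cells of HCT116, HT29 and SW480, against 37.3, 51.3 and 63.6 CPM in non-targeting cells. The groups did not overlap, the highest BZW2 shRNA library being HT29 and the lowest non-targeting library HCT116. The level was 6.85% of control in HCT116 (95% counting interval 2.20 to 16.2, from 5 and 235 reads), 66.3% in HT29 cells (57.2 to 76.7) and 34.4% in SW480 (27.9 to 42.1). The log2 fold change came to −1.92 ± 0.59 (SE, n = 3 lines; limma adjusted p 0.30) and became −1.03 without HCT116.

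Both transcripts had the lowest GC content of the members, 34.2% for STARD4 and 35.4% for INSIG2. The 598 genes of lowest GC content in HCT116 had a median log2 ratio of −1.83 (quartiles −2.62 and −1.09), against −3.68 for STARD4 and −3.64 for INSIG2. In HT29 the median of the 571 genes of lowest GC content was −0.55, against −1.63 for STARD4 and −0.59 for INSIG2. In SW480 the median of the corresponding 610 genes was −0.01, against −1.52 for STARD4 and −1.53 for INSIG2. With the GC trend removed the log2 ratios were −1.73, −1.02 and −1.54 for STARD4, and −1.83, −0.06 and −1.56 for INSIG2, in HCT116, HT29 and SW480. The same removal left BZW2 at −0.83, −3.08 and −2.89, so that in HCT116 it also shrank the ratio of the targeted gene, whose transcript has a GC content of 36.9%.

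The other regulators had no common direction. SREBF2 had 79.2, 84.3 and 74.6 CPM in BZW2 shRNA cells of HCT116, HT29 and SW480, against 86.5, 116 and 119 CPM in non-targeting cells. The groups were apart only by 84.3 CPM in HT29 against 86.5 CPM in HCT116, levels that were not scaled to each other. The counting interval of SREBF2 in HCT116 held 100% of control (76.1 to 109.7). Its log2 fold change came to −0.38 ± 0.36 (SE, n = 3 lines; limma adjusted p 0.60), and was −0.80 with the GC trend removed, −0.20 with the length trend removed and −0.25 without SW480. SREBF1 had 115, 53.5 and 31.0 CPM against 73.3, 57.3 and 60.2 CPM in the same order, a level above its control in HCT116, near it in HT29 (93.3%, 95% counting interval 82.3 to 106) and below it in SW480. Its log2 ratios with the GC trend removed were −0.62, −0.30 and −0.87, lower in all 3 lines. Its exons overlap RAI1 on the opposite strand. SCAP, which escorts the precursors to the Golgi, had 111, 42.9 and 40.8 CPM in BZW2 shRNA cells, against 44.4, 33.8 and 37.9 CPM in non-targeting cells, with log2 ratios of 1.32, 0.34 and 0.11. The SCAP log2 ratios with the GC trend removed were 0.04, 0.15 and 0.18. INSIG1, the INSIG gene that is itself an SREBP target, had 34.7, 100.3 and 80.8 CPM in BZW2 shRNA cells, against 27.9, 198 and 59.6 CPM in non-targeting cells. It was at 50.6% of control in HT29 (46.6 to 54.8) and at 136% in SW480 (117 to 157).

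In the sterol branch 8 of 18 enzymes were higher in all 3 lines, or 44.4% against 22.3% of all genes, and 0 were lower in all 3, against 21.1%. The first stage, from acetyl-CoA to farnesyl diphosphate, held 5 of these 8 among its 7 members. It held 3 of 7 with either the GC or the length trend removed, when PMVK and MVD dropped out. In the whole branch, 7 of 18 were higher in all 3 lines with the GC trend removed, and 6 with the length trend removed. Under the GC removal HSD17B7 joined the higher ones, and DHCR7 was lower in all 3 lines. Shares of all genes under these removals were not counted. ACAT2 (ENSG00000120437, chromosome 6, 159760328 to 159779055, plus strand), the cytosolic thiolase that joins acetyl-CoA units, had 83.3, 86.5 and 73.1 CPM in BZW2 shRNA cells of HCT116, HT29 and SW480, against 22.4, 58.8 and 30.3 CPM in non-targeting cells. The groups did not overlap. The folds were 3.72 (95% counting interval 2.95 to 4.70), 1.47 (1.32 to 1.64) and 2.41 (2.003 to 2.92), and the log2 fold change came to 1.27 ± 0.41 (SE, n = 3 lines; limma adjusted p 0.31). The exons of ACAT2 overlap those of SOD2 and TCP1 on the opposite strand. TCP1, a chaperonin subunit with 927, 290.4 and 836 CPM in BZW2 shRNA cells against 360.1, 210.0 and 399 CPM in non-targeting cells, moved in the same direction with log2 ratios of 1.36, 0.47 and 1.07. Without strand, reads of the pair cannot be told apart.

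FDPS (ENSG00000160752, chromosome 1, 155308748 to 155320666, plus strand), which makes farnesyl diphosphate, the last product shared with the isoprenoids, had 198, 148 and 122 CPM in BZW2 shRNA cells of the 3 lines, against 50.3, 94.7 and 58.8 CPM in non-targeting cells. The groups did not overlap, with folds of 3.94 (3.39 to 4.59), 1.56 (1.44 to 1.71) and 2.08 (1.82 to 2.39). Its log2 fold change came to 1.26 ± 0.40 (SE, n = 3 lines; limma adjusted p 0.31). The annotation names 8 FDPS pseudogenes, and how reads shared with them were counted is not given in the sources used here. MVK, mevalonate kinase, had 22.5, 19.95 and 19.8 CPM in BZW2 shRNA cells, against 8.88, 14.2 and 13.2 CPM in non-targeting cells, and did not overlap between groups; its exons overlap MMAB on the opposite strand. PMVK, the next kinase, had log2 ratios of 0.23, 0.46 and 0.23, with counting intervals that held 100% of control in HCT116 and SW480. MVD, the decarboxylase after it, was at 235% of control in HCT116 (199.7 to 276), 109% in HT29 cells (96.7 to 124) and 100.2% in SW480 (86.5 to 116).

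The remaining enzymes of this stage differed by line. HMGCS1, the synthase that commits acetyl-CoA units to HMG-CoA, had 103, 199 and 174 CPM in BZW2 shRNA cells of HCT116, HT29 and SW480, against 51.9, 238 and 93.5 CPM in non-targeting cells. IDI1, the isopentenyl diphosphate isomerase, had 32.7, 119.8 and 106 CPM against 41.7, 151 and 74.7 CPM in the same order. HMGCS1 was thus above its control in HCT116 and SW480 and below it in HT29, and IDI1 was above its control in SW480 only. The 7 members of the stage had median log2 ratios of 1.23, 0.46 and 0.57 in HCT116, HT29 and SW480. With the GC trend removed these medians were 0.71, 0.28 and 0.61.

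From squalene to lanosterol, 1 of 3 enzymes was higher in all 3 lines. FDFT1, squalene synthase, had 202, 243 and 231 CPM in BZW2 shRNA cells of HCT116, HT29 and SW480, against 76.9, 214 and 158 CPM in non-targeting cells. SQLE, squalene epoxidase, had 82.8, 322 and 121 CPM in BZW2 shRNA cells, against 55.8, 392 and 94.1 CPM in non-targeting cells. LSS, lanosterol synthase, had 40.9, 37.1 and 41.0 CPM in BZW2 shRNA cells, against 25.7, 44.3 and 24.1 CPM in non-targeting cells. SQLE and LSS were each above their control in HCT116 and SW480 and below it in HT29. The stage medians were 0.66, −0.25 and 0.54, and 0.77, −0.29 and 0.55 with the GC trend removed.

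After lanosterol, 2 of 8 enzymes were higher in all 3 lines, EBP and NSDHL, or 25% against 22.3% of all genes. EBP (ENSG00000147155, chromosome X, 48521158 to 48528716, plus strand), the sterol isomerase, had 104, 101 and 57.2 CPM in BZW2 shRNA cells of HCT116, HT29 and SW480, against 24.0, 69.3 and 27.5 CPM in non-targeting cells. HT29 control cells lay above SW480 BZW2 shRNA cells, so that the groups overlapped although every line was higher. The folds were 4.33 (3.49 to 5.38), 1.46 (1.32 to 1.62) and 2.08 (1.70 to 2.55), and the log2 fold change of 1.27 ± 0.42 (SE, n = 3 lines; limma adjusted p 0.31) became 0.83 without HCT116. NSDHL, a sterol dehydrogenase, had 21.5, 35.2 and 15.1 CPM in BZW2 shRNA cells, against 6.50, 25.9 and 11.04 CPM in non-targeting cells. In SW480 its counting interval held 100% of control (97.1 to 195).

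The other late enzymes had mixed ratios. MSMO1, the sterol methyl oxidase, was at 36.9% of control in HCT116, 61.8% in HT29 cells and 109.6% in SW480. SC5D, a sterol desaturase, followed with 56.4%, 66.3% and 118%. DHCR7, which makes cholesterol from its dehydro precursor, was at 185% in HCT116, 63.5% in HT29 cells and 66.7% in SW480. CYP51A1, the lanosterol demethylase, was at 145%, 55.6% and 95.9%. TM7SF2, a sterol reductase whose exons overlap VPS51 on the same strand, was at 152%, 174% and 77.6%. HSD17B7, a sterol keto-reductase, was at 90.4%, 104% and 115%, and each of its counting intervals held 100%. The medians of the 8 late enzymes were 0.56, −0.27 and 0.16 in HCT116, HT29 and SW480. With the GC trend removed they were 0.71, −0.06 and 0.13. The stage medians in HCT116 then lay between 0.71 and 0.77, so their order along the pathway was not kept.

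**Figure D3:**
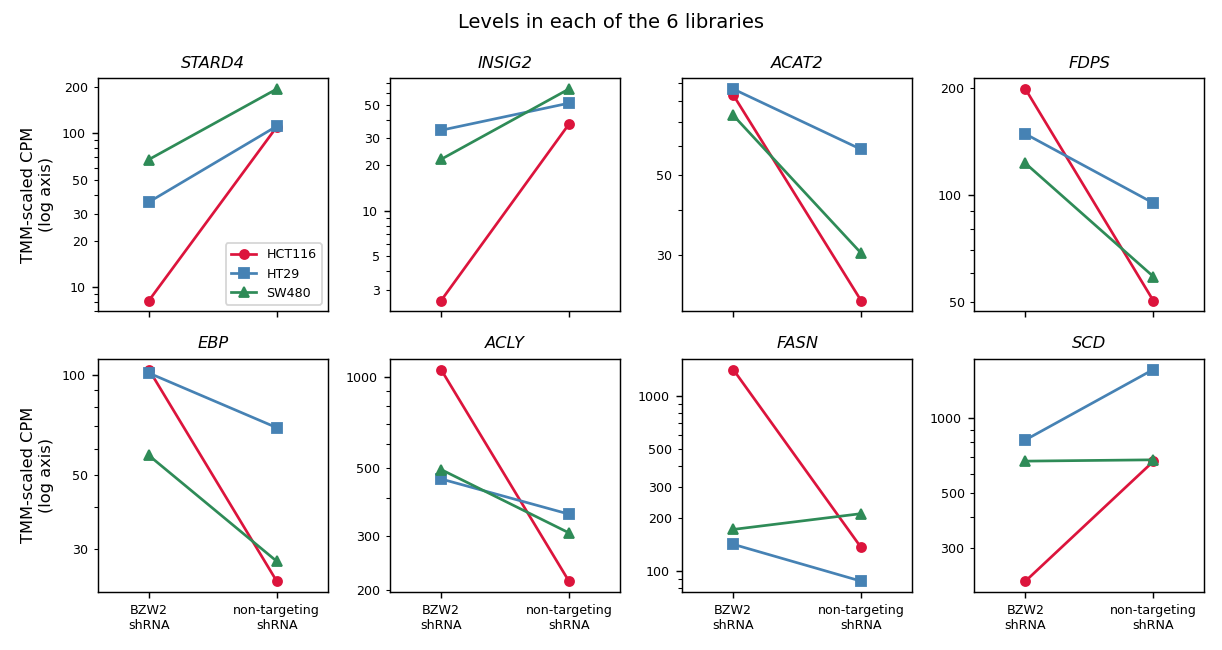
TMM-scaled CPM on log axes (y axis) of 8 members in BZW2 shRNA and non-targeting libraries (x axis); each line joins the 2 libraries of 1 cell line, and there are no error bars because each point is 1 library. STARD4 and INSIG2 sit lower under BZW2 shRNA in all 3 lines and ACAT2, FDPS, EBP and ACLY higher, while FASN is higher in HCT116 (1411 CPM under BZW2 shRNA) and HT29 and lower in SW480, and SCD is lower in HCT116 and HT29 and close to its control in SW480 (673 against 681 CPM).

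Promoter windows from RefSeq (GRCh38.p14, 250 bases before to 50 after an annotated start) were available for 30 of the members, in 39 windows. They are shown for STARD4, the member lowest across lines, for FDPS, EBP and ACLY, which were higher in all 3 lines, and for SREBF2, in which a sterol regulatory element was found. Each is written 5′ to 3′ on the gene's strand, and capitals mark matches to CCAAT (read as ATTGG on the other strand) or to the sterol regulatory element TCACNCCAC.
STARD4, chr5:111512486-111512785, minus strand: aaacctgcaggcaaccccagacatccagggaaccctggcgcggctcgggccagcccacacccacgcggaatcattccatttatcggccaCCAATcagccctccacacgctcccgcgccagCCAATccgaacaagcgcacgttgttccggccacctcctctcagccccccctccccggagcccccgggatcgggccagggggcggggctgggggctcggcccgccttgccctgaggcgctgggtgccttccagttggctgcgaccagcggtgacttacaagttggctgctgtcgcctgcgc
FDPS, chr1:155308616-155308915, plus strand: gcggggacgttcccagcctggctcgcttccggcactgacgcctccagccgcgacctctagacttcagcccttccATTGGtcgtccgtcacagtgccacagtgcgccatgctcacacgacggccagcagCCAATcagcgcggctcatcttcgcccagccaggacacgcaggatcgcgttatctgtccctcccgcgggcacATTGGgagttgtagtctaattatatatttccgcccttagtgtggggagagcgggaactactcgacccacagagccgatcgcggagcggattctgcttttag
EBP, chrX:48521558-48521857, plus strand: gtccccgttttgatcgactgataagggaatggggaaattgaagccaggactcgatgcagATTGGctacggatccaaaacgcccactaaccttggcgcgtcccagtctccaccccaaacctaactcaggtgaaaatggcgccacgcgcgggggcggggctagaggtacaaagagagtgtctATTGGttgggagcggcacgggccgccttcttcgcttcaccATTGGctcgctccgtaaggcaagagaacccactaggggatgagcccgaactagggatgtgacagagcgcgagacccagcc
ACLY, chr17:41918973-41919272, minus strand: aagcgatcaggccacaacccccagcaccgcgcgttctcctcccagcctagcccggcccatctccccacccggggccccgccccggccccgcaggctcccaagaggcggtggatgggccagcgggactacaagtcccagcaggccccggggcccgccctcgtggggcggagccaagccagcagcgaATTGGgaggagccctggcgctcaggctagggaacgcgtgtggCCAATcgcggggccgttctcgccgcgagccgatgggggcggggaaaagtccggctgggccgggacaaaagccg
SREBF2, chr22:41832855-41833154, plus strand: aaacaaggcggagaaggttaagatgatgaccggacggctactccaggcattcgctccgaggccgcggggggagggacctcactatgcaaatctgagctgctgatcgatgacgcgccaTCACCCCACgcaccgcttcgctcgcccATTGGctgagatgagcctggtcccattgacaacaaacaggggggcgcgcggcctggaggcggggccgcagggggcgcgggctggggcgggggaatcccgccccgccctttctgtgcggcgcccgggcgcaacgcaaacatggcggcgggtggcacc
The sterol regulatory element TCACNCCAC, on either strand, matched 1 of 39 member windows (2.56%) against 396 of 35116 windows of all genes (1.13%). The match was in SREBF2, as TCACCCCAC, 133 bases before the start. CCAAT on either strand matched in 23 of 30 members (76.7%) against 10846 of 27305 genes (39.7%), and 14 of 30 members (46.7%) held more than 1 match, against 12.9% of all genes. For both motifs the background is every gene with a RefSeq window, including genes without values in these lines. It is therefore not a set like the members. In the sterol branch 13 of 15 enzymes with a window held CCAAT, against 7 of 9 in the fatty acid branch and 2 of 5 regulators. STARD4 and ACLY each held 2 matches and FDPS and EBP 3 each, so that members with ratios in opposite directions both held it, and the INSIG2 windows held 0. The matches describe these letters only.

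In the fatty acid branch ACLY, FASN and SCD differed in direction. ACLY (ENSG00000131473, chromosome 17, 41866908 to 41930542, minus strand), ATP citrate lyase, supplies cytosolic acetyl-CoA to both branches. It had 1055, 462 and 496 CPM in BZW2 shRNA cells of HCT116, HT29 and SW480, against 214, 354 and 308 CPM in non-targeting cells. The groups did not overlap. Its folds were 4.94 (4.61 to 5.29), 1.30 (1.25 to 1.37) and 1.61 (1.52 to 1.72), and its log2 fold change of 1.16 ± 0.45 (SE, n = 3 lines; limma adjusted p 0.34) became 0.56 without HCT116.

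FASN (ENSG00000169710, chromosome 17, 82078333 to 82098332, minus strand), which builds palmitate, had 1411, 142 and 173 CPM in BZW2 shRNA cells of HCT116, HT29 and SW480, against 136, 87.7 and 213 CPM in non-targeting cells. The HCT116 value was 10.3-fold above its control (9.58 to 11.2), the HT29 value was 1.62-fold above (1.48 to 1.77), and SW480 was at 81.3% of control (74.6 to 88.6). The log2 fold change of 1.29 ± 0.62 (SE, n = 3 lines; limma adjusted p 0.38) became 0.23 without HCT116. FASN had a log2 ratio of 3.37 in HCT116, and 2.07 with the GC trend removed.

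SCD (ENSG00000099194, chromosome 10, 100347124 to 100364834, plus strand), the desaturase that makes oleate, had 222, 819 and 673 CPM in BZW2 shRNA cells of HCT116, HT29 and SW480, against 671, 1569 and 681 CPM in non-targeting cells. It was at 33.0% of control in HCT116 (29.9 to 36.5), 52.2% in HT29 cells (50.7 to 53.7) and 98.8% in SW480 (94.4 to 103), an interval that holds 100%. The log2 fold change of −0.82 ± 0.41 (SE, n = 3 lines; limma adjusted p 0.39) became −0.45 without HCT116. The SCD log2 ratios with the GC trend removed were −1.49, −0.96 and −0.02. Per kilobase of its longest transcript, SCD had the highest level of the members in non-targeting cells of all 3 lines, at 125, 293 and 127 CPM per kilobase.

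The elongases and activating enzymes differed by line. ELOVL1, an elongase of long saturated chains, was at 202%, 82.6% and 118% of control in HCT116, HT29 and SW480, and ELOVL6, which elongates palmitate, was at 75.3%, 101% and 121%. ELOVL5, an elongase of polyunsaturated chains, had 64.4 and 101 CPM in BZW2 shRNA cells of HCT116 and SW480, against 116 and 133 CPM in non-targeting cells. ACSL3, an acyl-CoA synthetase of lipid droplets, was at 38.5% of control in HCT116, 51.5% in HT29 cells and 119% in SW480. ACSS2, which activates acetate, was at 154%, 37.4% and 67.2%. Removal of the GC trend left ELOVL6 higher (log2 ratios 0.63, 0.16 and 0.24) and ACSS2 lower (−0.24, −1.54 and −0.54) in all 3 lines.

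FADS1 and FADS2, the desaturases of polyunsaturated fatty acids, lie next to each other and their exons overlap on opposite strands. FADS1 had 132, 5.35 and 127 CPM in BZW2 shRNA cells of HCT116, HT29 and SW480, against 97.1, 6.76 and 102 CPM in non-targeting cells. HT29 was low under both treatments, at 0.04 of the mean of the other lines in BZW2 shRNA cells and 0.07 in non-targeting cells. FADS2 had 14.3 and 6.75 CPM in BZW2 shRNA cells of HCT116 and SW480, against 6.03 and 5.02 CPM in non-targeting cells, and no value in HT29. HT29 was the highest line for 10 of the 18 sterol enzymes in BZW2 shRNA cells and for 14 of 18 in non-targeting cells. The share of all genes highest in HT29 was not counted, and levels of different lines were not scaled to each other. These counts therefore describe the levels listed and are not a result about sterol enzymes. In non-targeting cells, for example, HT29 had 5.23 times the mean SQLE level of HCT116 and SW480, 4.53 times that of INSIG1 and 3.28 times that of HMGCS1, and HMGCS1 was at 83.5% of control under BZW2 shRNA in HT29 (78.4 to 88.9).

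Set against the fatty acid branch, the sterol branch had the higher median log2 ratio in each line. The medians were 0.77 for the sterol branch and 0.53 for the fatty acid branch in HCT116, 0.09 and −0.30 in HT29, and 0.40 and 0.24 in SW480. The fatty acid medians were taken over 10, 8 and 10 genes in HCT116, HT29 and SW480. The differences were 0.24, 0.39 and 0.16 (SD over lines 0.12), against spreads within each branch that ran from −1.42 to 2.09 and from −1.60 to 3.37 in HCT116. No test was made, since the enzymes of a branch are not replicates. With the GC trend removed the HCT116 difference was 0.64, and with STARD4 and INSIG1 counted in the sterol branch it was 0.10 in HCT116 and 0.20 in HT29. The summed level of the 18 sterol enzymes was 1291 CPM in BZW2 shRNA cells against 669 CPM in non-targeting cells of HCT116, 1708 against 1818 CPM in HT29, and 1363 against 1008 CPM in SW480. The 8 fatty acid genes listed in all lines summed to 3049 against 1438 CPM in HCT116, 1874 against 2772 CPM in HT29, and 1897 against 1689 CPM in SW480. In HCT116 the fatty acid sum thus rose by a larger factor than the sterol sum, the reverse of the medians. FASN and ACLY, both above their control, made up most of that fatty acid sum under BZW2 shRNA. By gene, 6 of the 10 fatty acid genes listed in HCT116 were higher there and 4 lower. In HT29 and SW480 the sums kept the order of the medians.

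**Figure D4:**
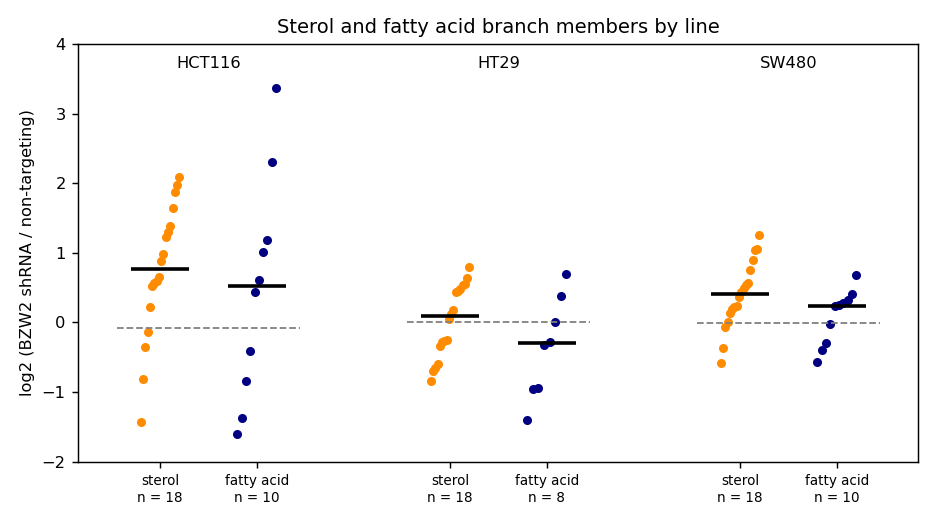
Log2 ratio of BZW2 shRNA over non-targeting (y axis) for the members of the sterol branch and the fatty acid branch in each line (x axis); points are genes, solid bars are branch medians and dashed lines are the median of all genes. The sterol median is above the fatty acid median in all 3 lines, by 0.24, 0.39 and 0.16, and the points of both branches overlap throughout.

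Genes of neighbouring pathways, 75 listed in all 3 lines, were near the background. Of these, 17 (22.7%) were higher in all 3 lines and 17 (22.7%) were lower in all 3, against 22.3% and 21.1% of all genes, and 0 passed the threshold in limma. Unadjusted p was under 0.05 for 2 that were higher, or 2.67% against 6.59% of all genes, among them PLIN3, a coat protein of lipid droplets. PLIN3 had 395, 74.2 and 403 CPM in BZW2 shRNA cells of HCT116, HT29 and SW480, against 164, 38.9 and 329 CPM in non-targeting cells (log2 fold change 0.87 ± 0.37, SE, n = 3 lines; limma adjusted p 0.36). The PLIN3 log2 ratios with the GC trend removed were 0.12, 0.75 and 0.34, against 1.27, 0.93 and 0.29 before.

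The 2 that were lower, 2.67% of the 75 against 7.04% of all genes, were ABCG1, a sterol exporter, and LPIN2, a phosphatidate phosphatase. ABCG1 had 1.53, 32.0 and 4.5 CPM in BZW2 shRNA cells, against 7.93, 60.2 and 8.23 CPM in non-targeting cells, and its level in HCT116, from 3 reads, was 19.3% of control (3.86 to 59.8). LPIN2 was at 38.3%, 53.1% and 50.7% of control, and its log2 fold change came to −1.04 ± 0.39 (SE, n = 3 lines; limma adjusted p 0.34). ACSL5, an acyl-CoA synthetase of intestinal epithelium, was at 15.6% of control in SW480 (13.1 to 18.4) but at 68.8% in HCT116 and 88.3% in HT29.

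By list, and against the same shares of all genes (22.3% higher and 21.1% lower in all 3 lines), 1 of 14 genes of sterol uptake, storage and efflux and 2 of 10 genes of SREBP processing and turnover were higher in all 3 lines, and 3 and 4 were lower in all 3. Of 7 genes of the isoprenoid side branches 2 were higher and 2 lower in all 3 lines. Of 15 other genes of fatty acid synthesis, elongation and activation 1 was higher and 5 lower, and of 12 genes of glycerolipid synthesis and storage 5 were higher and 3 lower. Of 12 genes of fatty acid oxidation 4 were higher and 0 lower in all 3 lines.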

How the data were processed

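RNA of 6 cultures was sequenced. Per the submitters' processing notes, bcl2fastq 2.17, STAR 2.5.2b, DESeq and GRCh38 were used; not given in the sources used here: the counter and strandedness. The authors deposited 1 table of normalized expression (signal: gene counts divided by size factors within each line). Of 266314 rows and 13040 identifiers, 19 repeated identifiers were left out. Whole reads were recovered from the value steps, with 100% of values within 0.1 of a whole number in all 6 libraries; the smallest value of the SW480 non-targeting library stands for 2 reads. The members and gene lists were chosen with earlier results of these data known; every member with 1 row is named, and of other lists those with a log2 fold change of at least 1 and 1 sign in all lines, or an unadjusted p under 0.05, apart from some that are not reported here. Deposited values were tested as log2(value + 1) in limma 3.58.1 (R 4.3.3) with line as block and Benjamini-Hochberg adjustment over 10875 genes. The variance of each gene was moderated toward the trend over all genes, with 2 residual and 7.26 prior degrees of freedom. Fits without 1 line had fewer residual degrees of freedom. A filter of value 1 in 3 libraries removed 0 genes. Each line's libraries share a cell line, which is where the pairing comes from. The deviations of the paired libraries correlated at 0.28, 0.75 and 0.45 in HCT116, HT29 and SW480. Between lines, the HCT116 BZW2 shRNA library correlated at 0.23 with the SW480 control. The SW480 BZW2 shRNA library correlated at 0.38 with the HCT116 control, and the other unpaired values were negative. Ratios within a line used TMM (edgeR 4.0.16) with a prior count of 2. Intervals are exact Clopper-Pearson 95% intervals and cover counting error only. GC and length trends were removed by loess (span 0.3). edgeR and DESeq2 1.42.0 on recovered reads were alternatives. Fits were tested on simulated data. Lengths and GC content came from GENCODE 29.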

Additional observations from a re-analysis of the deposited data

Results flagged for a closer look

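For 11 members, ratios of BZW2 shRNA over non-targeting ran in opposite directions in a pair of lines, each counting interval lay wholly on its own side of 1, and the ratios were at least 2-fold apart. The share of all genes that met this rule was not counted, with or without the GC trend. The count of 11 therefore cannot be read as particular to these members. None of these differences between lines was tested, since each line had 1 library per treatment, and the values are differences of log2 ratios between the line named first and the line named second. FASN differed by 3.66 between HCT116 and SW480. In the same manner SREBF1 differed by 1.60 between HCT116 and SW480. Between HCT116 and HT29 the difference was 2.02 for ACSS2, 1.54 for DHCR7, 1.37 for CYP51A1, 1.28 for ELOVL1 and 1.24 for HMGCS1. Between SW480 and HT29 it was 1.42 for INSIG1 and 1.01 for LSS. ACSL3 differed by 1.62 between SW480 and HCT116, and TM7SF2 by 1.15 between HT29 and SW480. Of the 11 pairs, 8 involve HCT116, and the ratios followed GC content in HCT116 (Spearman 0.66) and in HT29 (0.31). With the GC trend removed, 7 of the 11 were still opposite in sign. The other 4 were SREBF1 (−0.62 in HCT116 and −0.87 in SW480), DHCR7 (−0.27 in HCT116 and −0.83 in HT29), ACSS2 (−0.24 in HCT116 and −1.54 in HT29) and ACSL3 (0.21 in SW480 and 0.13 in HCT116).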

How the results depend on the processing

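Without the replicate block, that is, without cell line as the pairing, limma called 0 genes and 0 members, and 191 genes had an unadjusted p under 0.05 against 1483 with it. DESeq2 called 244 genes and 1 member, against 0 and 0 in limma, and leaving out 1 line gave 338 genes without HCT116, 57 without HT29 and 137 without SW480, with 0 to 1 members; the cause was not tested. Of 416 member fold changes recomputed, 391 kept direction and side of the threshold, 3 (all STARD4) passed it and 22 turned sign, and 18 of 32 members never turned. With the GC trend removed the log2 fold changes that turned were INSIG1 0.044, PMVK −0.12, MVD −0.020, IDI1 0.37, LSS −0.016, CYP51A1 0.27, TM7SF2 −0.13, SC5D 0.21, ELOVL1 −0.0055 and ELOVL6 0.38, and with the length trend removed HSD17B7 −0.031 and ELOVL6 0.25. Leaving out 1 line moved SREBF1 between −0.50 and 0.31, INSIG1 −0.30 and 0.41, IDI1 −0.30 and 0.11, CYP51A1 −0.42 and 0.27, HSD17B7 −0.0075 and 0.16, DHCR7 −0.59 and 0.19 (0.15 without SW480), ELOVL6 −0.16 and 0.17, and ACSS2 −0.96 and 0.062. Members at least 2-fold higher numbered 7 in HCT116 with library size alone (12 with TMM) and 1 in SW480 with the length trend removed (3 without). The branch difference in HCT116 was 0.64 with the GC trend removed and 0.10 with STARD4 and INSIG1 added, and 0.20 in HT29 with them added, and in SW480 it was 0.10 with the length trend removed (0.16 without); all 15 recomputed differences were positive. Depth limits INSIG2 and STARD4 in HCT116, with 5 and 16 reads under BZW2 shRNA.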
